A study of Mus musculus with 19 samples.

Results

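Tumours given osimertinib alone were compared with control tumours, and the comparison was read across all genes of the deposited count table. It rests on 10 of the 19 libraries of the series, chosen by treatment label: 5 from tumours labelled osimertinib and 5 from tumours labelled DMSO, the solvent, which are the controls. All were xenografts in NCG mice, an immunodeficient strain that lacks mature lymphocytes, of HCC827, a lung adenocarcinoma line of human origin that carries an activating EGFR mutation. Both groups therefore model 1 cell line in a host without adaptive immunity, and the labels used here give no dose, schedule, time or animal age. The other 9 libraries, 4 labelled 6-thio-dG (thio) and 5 given 6-thio-dG with osimertinib (combination), enter below only as a second background in which osimertinib was added. Nothing in the labels says that each library came from a separate animal, so p-values measure the spread between these libraries, which may be partly technical.

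EGFR is a receptor tyrosine kinase that drives proliferation and survival through the ERK and AKT pathways, and osimertinib binds covalently to its mutated kinase domain. When the pathway is blocked, short-lived feedback genes of ERK such as DUSP6 usually lose expression first, while tumour cells that survive for longer often take up features of other epithelial states. In the airway these states include basal cells, which carry keratins and desmosomes of stratified epithelium under TP63, ciliated cells, which build motile cilia under FOXJ1, and secretory and alveolar cells, which carry mucins, secretoglobins and the transcription factor NKX2-1.

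Total counts ran from 22348698 to 30734539 in control and from 23068873 to 35397346 in osimertinib. Summed levels of 8 lung cancer epithelial markers, given like all levels below as CPM (counts scaled to library size, with TMM factors), were 20542 to 27602 in control and 21004 to 23886 in osimertinib. Transcripts of the mitochondrial genome took 7.04%, 7.84%, 8.05%, 8.54% and 9.29% of counts in controls 1 to 5, and 9.66%, 10.2%, 8.62%, 16.0% and 15.3% in osimertinib 1 to 5. Osimertinib 4 and 5 thus stood apart from the other 8 libraries, and the group means differed (2-sided exact permutation p = 0.0159, where 0.00794 is the smallest possible). Summed skeletal muscle markers reached 1035 CPM in control 1 and 1046 CPM in control 3, and lay between 83.2 and 284 in the other controls and between 131 and 237 in osimertinib (exact permutation p = 0.246, adjusted p = 0.554 over 9 marker lists). All 12 tested muscle markers were negative, with a median log2 fold change of -2.23 and 10 at an unadjusted p under 0.05, and 1 was called. That was TNNT3, a troponin of fast muscle (-2.27 ± 0.52, adjusted p = 0.0198), lost without osimertinib 2 or 4 (highest adjusted p = 0.0525). TNNT3 measured 20.2, 43.3, 23.6, 36.3 and 4.67 CPM in controls 1 to 5 and 2.89, 4.01, 3.69, 6.00 and 10.2 CPM in osimertinib 1 to 5. It was thus highest in controls 2 and 4, unlike the muscle sums, which were highest in controls 1 and 3. The median of the muscle markers was -1.54 without control 1 and -1.71 without control 3. Fibroblast markers spanned 469 to 1107 CPM in control and 507 to 868 in osimertinib (exact permutation p = 0.595, adjusted p = 0.893). Of the 9 lists the neutrophil markers came nearest to a call, at 0.202 to 1.03 CPM against 0.701 to 1.78 (exact permutation p = 0.0159, adjusted p = 0.143). NKG7 of lymphocytes and HBA1 of red cells were at 0 in all 10 libraries. The muscle marker MYLPF was absent from the count table, so it has no value. The part of these shares and sums in the gene results was not tested beyond the values given beside them.

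Osimertinib tumours had 451 genes higher (2.70% of 16704 tested) and 244 lower (1.46%) than control, together 4.16%, by edgeR's quasi-likelihood test at a Benjamini-Hochberg adjusted p under 0.05. The lowered genes included keratins of stratified epithelium, epithelial protease inhibitors and Notch pathway genes, and the raised ones included ion transport, cilium and cytochrome P450 genes. All 5 osimertinib libraries lay above all 5 controls in 626 genes (3.75%) and below them in 350 genes (2.10%). The raised genes were mostly low in abundance: 311 of the 451 had a mean log2 CPM under 2, where 6.04% of 5153 genes were called higher and 1.61% lower. At or above that level 140 genes were higher and 161 lower of 11551. Symbols of long intergenic RNAs made up 25 of the raised genes and 1 of the lowered genes, out of 340 tested (7.35% and 0.294%). Antisense symbols made up 18 and 0 of 494 (3.64% higher). Both classes were low in abundance, with a median log2 CPM of -0.51 and 0.23. Their shares of raised genes were thus near the 6.04% of genes under a mean log2 CPM of 2, or below it. The library kit marks no strand, so antisense reads and reads of the opposite gene cannot be told apart.

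**Figure D1:**
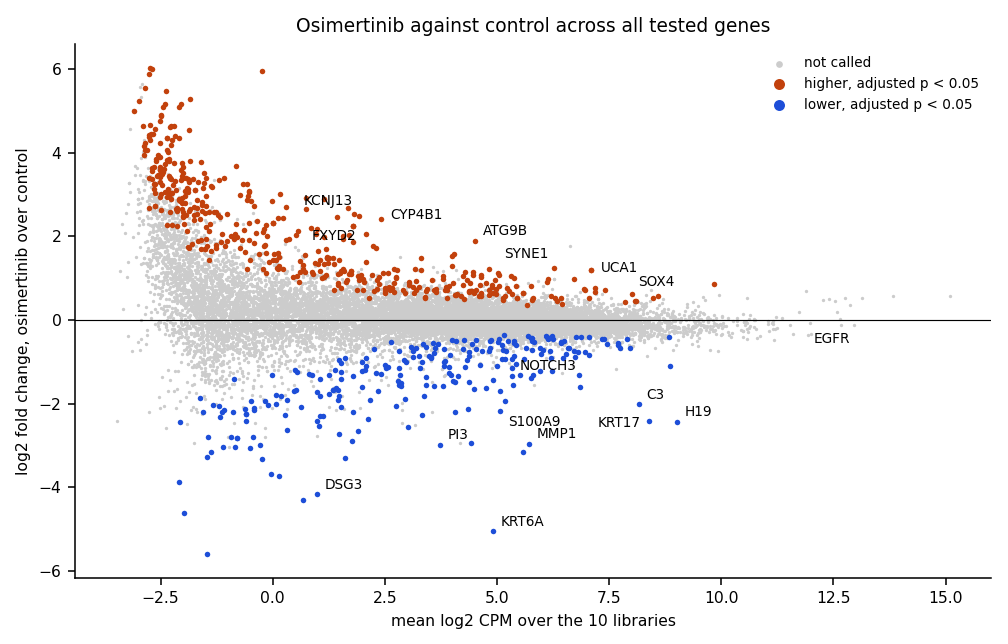
Each point is 1 of the 16704 tested genes, with the mean log2 CPM over the 10 libraries on the horizontal axis and the log2 fold change of osimertinib over control on the vertical axis. The 451 higher calls (orange) lie mostly on the left, at low levels, while the 244 lower calls (blue) spread over the range, with KRT6A at -5.05 and EGFR near 0.

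Single libraries weighed on these counts. Without control 3 the test called 126 genes higher and 123 lower, and without osimertinib 4 it called 134 and 83. With the mitochondrial percent as a covariate the counts were 178 and 144, and with the muscle level 301 and 132. Osimertinib 4 held the highest value of its group in 228 of the 451 raised genes, and control 2 the highest of its group in 116 of the 244 lowered genes. Among the treated libraries, osimertinib 5 was the highest in 102 of the 244 lowered genes. In what follows, a gene whose call was lost when a library was left out is given with the libraries that decide it and its highest adjusted p among the 10 leave-outs. Values after ± are SE for a log2 fold change and SD (n = 5) for a mean CPM. Library values are in the order 1 to 5, with control first and osimertinib second. Counts per list stand beside 2.70% called higher and 1.46% lower over all tested genes. Among genes at a mean log2 CPM under 2 these shares were 6.04% and 1.61%.

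The drug's target and the feedback genes of its pathway did not pass the test. EGFR itself stood at 4791, 5217, 3175, 3883 and 3902 CPM in controls 1 to 5 and at 3944, 4196, 5111, 3121 and 3461 CPM in osimertinib 1 to 5. The groups overlapped throughout, and the log2 fold change was -0.08 ± 0.17 (95% interval -0.42 to 0.26, adjusted p = 0.845). DUSP6, a phosphatase that switches off ERK, measured 56.7, 113, 45.0, 84.1 and 52.5 CPM in control and 54.4, 58.3, 80.4, 75.3 and 45.1 CPM in osimertinib. Its highest value was in control 2, and its change was -0.17 ± 0.22 (95% interval -0.59 to 0.26, adjusted p = 0.729).

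None of 19 tested genes of ERK feedback and output was called by edgeR or DESeq2, with 3 at an unadjusted p under 0.05, while voom called 2 and edgeR 1 higher without control 5. Their median log2 fold change was -0.04 beside 0.02 over all tested genes. Among them SPRY4, an inhibitor of receptor signalling, had 0.41 ± 0.16 (adjusted p = 0.148), the ETS factor ETV5 -0.25 ± 0.18 (adjusted p = 0.488), and cyclin D1, CCND1, -0.27 ± 0.18 (adjusted p = 0.429). Of 13 ERBB receptors and ligands none was called by edgeR, DESeq2 or voom, with 1 at an unadjusted p under 0.05. ERBB2 had -0.13 ± 0.13 (adjusted p = 0.648), ERBB3 0.19 ± 0.19 (adjusted p = 0.632), and ERRFI1, which binds and inhibits EGFR, 0.09 ± 0.23 (adjusted p = 0.86). These tools called none of 24 genes of DNA replication and G1/S (median -0.09, 0 at an unadjusted p under 0.05) or of 24 genes of mitosis (median -0.03, or 0.00376 with upper-quartile scaling, 2 at an unadjusted p under 0.05). Of 15 genes of the BCL2 family, which governs apoptosis, edgeR called none (1 higher without osimertinib 3), DESeq2 called 2 and voom 3, with 3 at an unadjusted p under 0.05. BCL2L11, the pro-apoptotic protein BIM, had -0.09 ± 0.13 (95% interval -0.35 to 0.17, adjusted p = 0.767). One immediate early gene was lower. IER5 was at 105, 142, 139, 133 and 95.6 CPM in control and at 69.2, 59.6, 65.1, 60.0 and 74.5 CPM in osimertinib, without overlap, a change of -0.91 ± 0.16 (adjusted p = 0.00514), while the other 15 tested genes of its list were not called.

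Keratins of stratified epithelium, the intermediate filaments of basal and injured epithelial cells, fell in 6 of 13 tested genes and rose in none, with a median log2 fold change of -0.79. KRT6A, a keratin induced by injury, measured 211, 466, 149, 267 and 40.2 CPM in controls 1 to 5 and 1.74, 4.17, 3.11, 14.9 and 10.5 CPM in osimertinib 1 to 5. Every osimertinib library lay below every control, and control 5 was the lowest of its group. The change was 33.2-fold, or -5.05 ± 0.68 on the log2 scale (adjusted p = 0.0015). KRT17, a further injury keratin, stood at 406, 1676, 928, 1150.1 and 343 CPM and at 85.0, 113, 119.8, 169 and 355 CPM, in the same order. Osimertinib 5 was the one treated library that reached into the control range, above control 5, and the change was -2.42 ± 0.46 (adjusted p = 0.00717). KRT5 and KRT14, which pair into the filament of basal cells, both fell. KRT14 had 10.7, 14.8, 6.09, 22.8 and 2.20 CPM in control and 0.403, 0.726, 0.901, 1.85 and 1.93 CPM in osimertinib, with no overlap (-3.31 ± 0.60, adjusted p = 0.00573). KRT5 had 102, 453, 147, 279 and 45.6 CPM and 4.06, 11.1, 8.43, 29.9 and 61.6 CPM, with osimertinib 5 inside the control range (-3.17 ± 0.65, adjusted p = 0.0111). KRT6B and KRT13 completed the 6, at -5.58 (adjusted p = 0.0153) and -2.08 (adjusted p = 0.0236). KRT6B did not pass the filter for low counts with the 2 groups alone. KRT13 was not called when control 2, osimertinib 1 or osimertinib 2 was removed (adjusted p up to 0.0639). The count was 5 or 6 in each of the 10 leave-outs and 6 with the mitochondrial covariate. KRT5, KRT6B and KRT13 fall outside the naming rule and were chosen after their values were seen.

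Of 5 keratins of simple epithelium, the filaments of glandular epithelial cells, none was called by edgeR, DESeq2 or voom (1 at an unadjusted p under 0.05). KRT8 was at 0.02 on the log2 scale (adjusted p = 0.97), its partner KRT18 0.20 (adjusted p = 0.504), KRT7 0.04 (adjusted p = 0.929) and KRT19 -0.35 (adjusted p = 0.257). The difference between the 2 keratin lists was not tested. Of 12 desmosome genes 2 fell. DSG3, the desmosomal cadherin of basal cells, measured 5.84, 28.1, 6.20, 7.71 and 3.37 CPM in control and 0.0931, 0.404, 0.262, 0.675 and 1.53 CPM in osimertinib. The groups did not overlap, control 2 was far above the other controls, and the change was -4.17 ± 0.63 (adjusted p = 0.0023). Desmocollin DSC3 changed by -1.0 ± 0.28 (adjusted p = 0.0493) and kept its call only without control 5 (highest adjusted p = 0.148, without osimertinib 4). The plaque protein DSP, at -0.58 (adjusted p = 0.118), was not called.

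Among 21 genes of the cornified envelope and its regulators 3 fell and 1 rose. SPRR1B, an envelope precursor, was at 1.92, 1.69, 1.03, 1.13 and 0.734 CPM in control and 0.0931, 0.35, 0.61, 0.178 and 0.219 CPM in osimertinib, without overlap (-2.12 ± 0.42, adjusted p = 0.00919). TP63, the transcription factor of basal cells, was at 30.0, 80.3, 26.9, 47.6 and 11.2 CPM and 11.4, 9.42, 14.4, 11.9 and 22.6 CPM. Control 5, the lowest control, lay within the treated range, and the change of -1.49 ± 0.37 (adjusted p = 0.0281) was called in 5 of 10 leave-outs, and not without controls 2 or 4 or treated libraries 1, 2 or 4 (at most adjusted p = 0.0826). SPRR2D was the third that fell (-2.07 ± 0.55, adjusted p = 0.0364), called among the leave-outs only without control 2 (adjusted p up to 0.0825), and the list gave 1 lower call when control 4 or any of osimertinib 1, 2 and 4 was left out. The raised member was KLK5, a protease of the shedding epidermis, at 0.624, 0.144, 0.241, 0.282 and 0.734 CPM in control and 1.24, 1.16, 2.18, 2.34 and 1.88 CPM in osimertinib (2.11 ± 0.40, adjusted p = 0.00666).

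**Figure D2:**
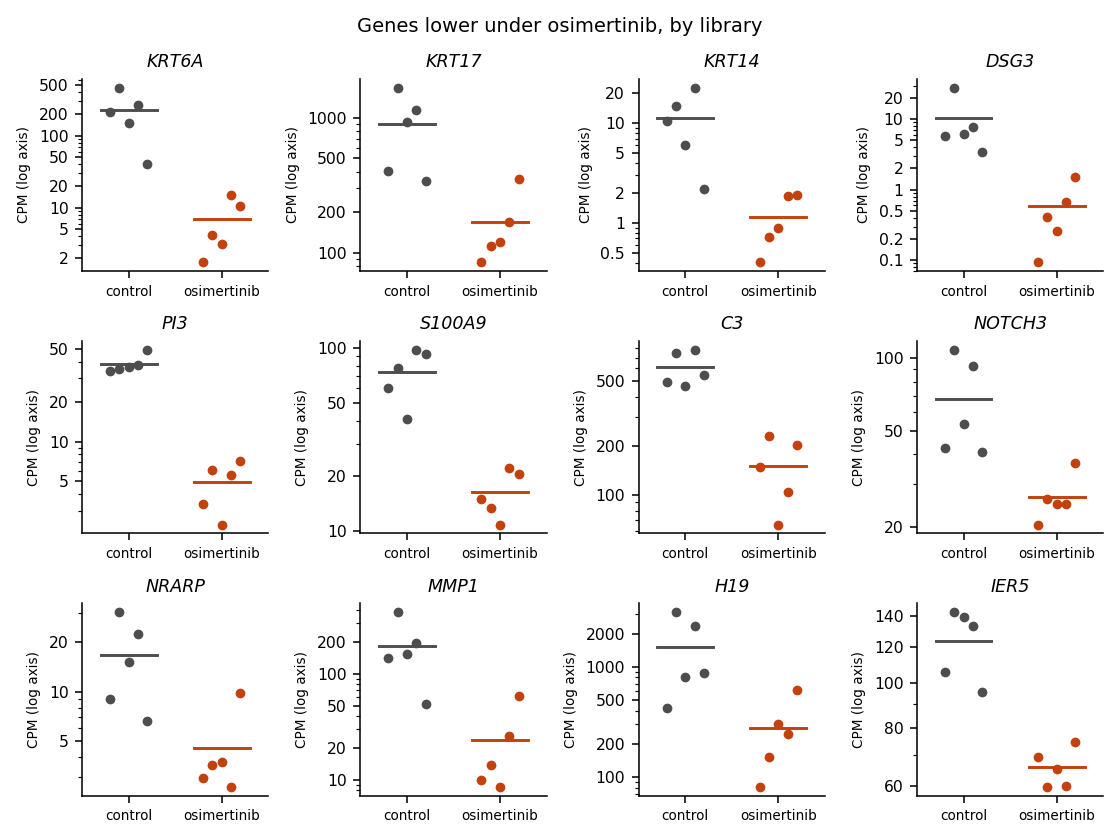
CPM (log axis) of 12 lowered genes in the 5 control (grey) and 5 osimertinib libraries (orange), in order of replicate from left to right, with a bar at each group's mean. In KRT6A, KRT14, DSG3, PI3, S100A9, C3, NOTCH3 and IER5 the groups do not overlap, and in KRT17, NRARP, MMP1 and H19 osimertinib 5 reaches the lowest controls.

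Epithelial protease inhibitors, which hold neutrophil and cysteine proteases in check, fell in 6 of 20 tested genes and rose in none, with a median log2 fold change of -0.67. PI3 (elafin), an elastase inhibitor, measured 34.0, 35.1, 36.7, 38.1 and 49.4 CPM in control and 3.35, 6.11, 2.35, 5.57 and 7.14 CPM in osimertinib. The 5 controls were close together and every osimertinib library lay below them, a change of -2.99 ± 0.57 (adjusted p = 0.00724). SLPI, its relative in airway secretions, was at 44.9, 80.0, 101, 80.4 and 65.2 CPM and 25.9, 36.3, 21.1, 28.6 and 37.1 CPM, again without overlap (-1.32 ± 0.28, adjusted p = 0.0118). CSTA, an intracellular inhibitor of cathepsins, was at 3.21, 9.23, 4.03, 7.26 and 0.567 CPM and 0.217, 0.35, 0.0291, 0.249 and 1.05 CPM. Control 5 overlapped with osimertinib 5, and the change was -3.74 ± 0.70 (adjusted p = 0.0064). SERPINB3 changed by -1.92 ± 0.46 (adjusted p = 0.0256), a call lost when control 3 or any of osimertinib 1, 4 and 5 was left out (adjusted p up to 0.0846), and SERPINA3 also fell (-1.63 ± 0.43, adjusted p = 0.0347), which held only when control 1, 2 or 5 or osimertinib 5 was removed (adjusted p up to 0.107). SLPI and SERPINA3 were named after their values were seen.

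Calcium-binding S100 proteins fell in 2 of 14 genes, with 4 called when control 1 was left out. S100A9, a subunit of the neutrophil and epithelial protein calprotectin, stood at 60.7, 77.9, 41.1, 97.3 and 92.4 CPM in control and 15.1, 13.5, 10.9, 22.1 and 20.6 CPM in osimertinib. The groups did not overlap and the change was -2.17 ± 0.39 (adjusted p = 0.00517). S100A2, a member found in basal epithelium, stood at 35.2, 56.4, 67.1, 68.4 and 22.0 CPM and 14.2, 15.3, 11.9, 16.5 and 23.2 CPM. Osimertinib 5 lay just above control 5, and the change was -1.62 ± 0.28 (adjusted p = 0.00404). Complement C3, which epithelial cells also secrete, was at 498, 748, 471, 781 and 548 CPM and 149, 232, 65.6, 104 and 202 CPM, fully separated, with a change of -2.02 ± 0.37 (adjusted p = 0.00612). Of the other 16 tested complement genes, CLU (clusterin) rose by 1.08 on the log2 scale (adjusted p = 0.0434), and among the 10 leave-outs kept its call only without control 1 (highest adjusted p = 0.145). The vitamin B12 binder TCN1, a secretory product, fell from 20.4 ± 10.4 to 5.75 ± 1.52 CPM (-1.83 ± 0.31, adjusted p = 0.00392).

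Lists of inflammatory genes had negative medians but no member called by edgeR's test. A negative median was common, found in 38 of the 53 gene lists examined. At an unadjusted p under 0.05 there were 7 chemokines, 3 interleukins and growth factors and 5 interferon-stimulated genes, and DESeq2 called 2, 0 and 2 and voom 2, 0 and 1. Without control 1 or control 3, edgeR called 1 interferon-stimulated gene lower. The median was -0.64 in 17 chemokines, -0.37 in 16 interleukins and growth factors and -0.47 in 27 interferon-stimulated genes, where 23 of 27 were negative against 47.3% of all tested genes. With the mitochondrial covariate these medians were -0.52, -0.34 and -0.24. OASL, an antiviral protein, came nearest among the interferon genes at -1.12 (adjusted p = 0.0538), and CXCL8, the neutrophil chemokine, had -1.16 (adjusted p = 0.25). Of 13 prostaglandin genes 1 fell, the phospholipase PLA2G4A that releases arachidonic acid. It measured 8.42, 16.7, 6.20, 8.35 and 4.47 CPM in control and 4.03, 4.06, 3.75, 4.08 and 3.98 CPM in osimertinib, nearly constant in the treated group (-1.15 ± 0.26, adjusted p = 0.0192, and 0.0525 with the mitochondrial covariate).

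Notch signalling, in which a ligand on 1 cell triggers cleavage of a receptor on its neighbour, was lower in 4 of 11 tested genes and higher in none, with a median of -0.40. The receptor NOTCH3 measured 42.6, 108, 53.4, 92.6 and 40.7 CPM in control and 20.4, 26.2, 24.9, 24.9 and 36.7 CPM in osimertinib. Controls 2 and 4 were the highest and no values overlapped, a change of -1.35 ± 0.26 (adjusted p = 0.00782). NRARP, a direct Notch target that feeds back on the pathway, had 9.00, 30.6, 15.1, 22.4 and 6.61 CPM and 2.98, 3.55, 3.75, 2.63 and 9.85 CPM. Osimertinib 5 lay within the control range, and the change of -1.89 ± 0.41 (adjusted p = 0.0143) was not called without osimertinib 4 (adjusted p = 0.0517). The ligand JAG2 fell by 0.72 on the log2 scale (adjusted p = 0.0158), lost without control 3 (adjusted p = 0.0508). JAG1, a ligand named after its value was seen, changed by -0.67 ± 0.17 (adjusted p = 0.0298), lost without control 2, 3 or 4 or osimertinib 1, 2 or 4 (highest adjusted p = 0.089). Without control 3 or osimertinib 4, the list kept 2 calls.

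Genes of matrix remodelling were lower in part. Of 14 matrix metalloproteinases and their inhibitors 3 fell, and 1 was called when any of controls 2, 3 and 4 or osimertinib 1, 2 and 4 was left out. MMP1, the interstitial collagenase, measured 141, 379.6, 152, 196 and 51.3 CPM in control and 9.90, 14.0, 8.60, 25.8 and 61.2 CPM in osimertinib. Osimertinib 5 exceeded control 5, and the change was -2.95 ± 0.61 (adjusted p = 0.0111). The other 2 were the stromelysin MMP10 (-2.57 ± 0.72, adjusted p = 0.0452) and the membrane-bound MMP14 (-0.77 ± 0.20, adjusted p = 0.0354), with a highest adjusted p of 0.143 and 0.0924 among the leave-outs. MMP10 kept its call only without control 1, control 5 or osimertinib 5, and MMP14 only without control 1, control 5 or osimertinib 3. The laminin chain LAMA4 was at 2.90, 2.49, 2.27, 2.14 and 2.84 CPM and 1.15, 0.834, 0.959, 0.639 and 0.35 CPM, without overlap (-1.66 ± 0.34, adjusted p = 0.0109). TGM2, a protein crosslinker, was at 729.6, 489, 832, 684 and 752 CPM and 389.9, 410.4, 388, 183 and 258 CPM, also without overlap. Its change of -1.10 ± 0.27 (adjusted p = 0.0291) lost its call when any of controls 3 and 4 or osimertinib 4 and 5 was left out (adjusted p up to 0.088).

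COL5A1, a fibrillar collagen chain, was at 106, 51.3, 138, 64.0 and 102 CPM and 29.4, 32.4, 41.0, 27.1 and 55.4 CPM (-1.32 ± 0.25, adjusted p = 0.00646). It is itself one of the fibroblast markers, of which 1 of 14 fell and 1, THY1, rose. THY1 was at 2.90 (adjusted p = 0.0405), and was called only without control 2 or osimertinib 1 (adjusted p up to 0.0997 in the other leave-outs). THY1 did not pass the filter for low counts with the 2 groups alone. In bulk tumours, fewer cells of a type and less RNA per cell cannot be told apart. COL5A1 and THY1 were named after their values were seen.

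The imprinted neighbours H19 and IGF2 moved in opposite directions. H19, a long noncoding RNA, measured 426, 3129, 800.4, 2323 and 883 CPM in control and 81.6, 154, 306, 245 and 616 CPM in osimertinib. Controls 2 and 4 were by far the highest, osimertinib 5 overlapped with control 1, and the change was -2.43 ± 0.52 (adjusted p = 0.0133). IGF2, the growth factor that activates IGF1R, measured 0.357, 0.793, 0.138, 0 and 1.67 CPM and 3.29, 2.26, 3.75, 6.89 and 3.77 CPM. All treated libraries exceeded all controls at levels of a few CPM, and the change of 2.71 ± 0.68 (adjusted p = 0.0305) was lost when any of controls 1, 3 and 4 or osimertinib 4 was left out (adjusted p up to 0.0924). IGF2 and the receptor kinase MERTK (0.97 ± 0.26, adjusted p = 0.0422) were the 2 of 21 receptor kinases and ligands of bypass signalling that rose. MERTK kept its call only without control 2 or osimertinib 3 (highest adjusted p = 0.141). MET, a kinase known for bypass of EGFR inhibition, had 0.42 ± 0.16 (adjusted p = 0.142), and AXL -0.61 ± 0.31 (adjusted p = 0.295). With the mitochondrial covariate MET was called higher (0.54, adjusted p = 0.0421), while IGF2 and MERTK were not called (adjusted p = 0.0765 and 0.116).

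Further genes were lower with fully separated groups. The adhesion receptor NECTIN1 fell from 78.2 ± 55.0 to 20.4 ± 4.69 CPM (-1.94 ± 0.41, adjusted p = 0.0124). The lipid phosphatase INPP5D fell from 10.8 ± 7.15 to 2.10 ± 0.601 CPM (-2.36 ± 0.39, adjusted p = 0.00392). TNS4, a focal adhesion adaptor, fell from 42.8 ± 15.0 to 13.6 ± 6.23 CPM (-1.66 ± 0.28, adjusted p = 0.00392). ID1, an inhibitor of differentiation factors and a BMP target, fell from 28.5 ± 7.61 to 15.8 ± 2.68 CPM (-0.85 ± 0.19, adjusted p = 0.0183). Adenosine deaminase, ADA, was at 21.8, 21.3, 28.5, 23.0 and 25.2 CPM in control and 14.0, 14.3, 14.0, 14.0 and 18.5 CPM in osimertinib. It was the only called gene of 19 in purine handling, with osimertinib 5 above the other 4 treated libraries (-0.68 ± 0.12, adjusted p = 0.00392).

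Glycolytic genes were negative in 18 of 19, with a median of -0.43. That median was -0.29 with the mitochondrial covariate, and 38 of the 53 gene lists had a negative median. The test called 3: the phosphofructokinase PFKM (-0.39 ± 0.10, adjusted p = 0.0324), the hexokinase HK1 (-0.77 ± 0.20, adjusted p = 0.0344) and the aldolase ALDOC (-0.75 ± 0.21, adjusted p = 0.0465). HK1 lay at 158, 175, 133, 156 and 125 CPM in control and at 87.8, 95.4, 117, 59.5 and 77.1 CPM in osimertinib, without overlap. Among the leave-outs PFKM was called only without control 2, control 5 or osimertinib 3, HK1 only without control 5 or osimertinib 3, and ALDOC only without control 1 (adjusted p up to 0.0924, 0.11 and 0.141). The list gave 1 without control 1 or 2, and 0 without control 3 or 4 or any of osimertinib 1, 2, 4 and 5. In the hypoxia list 1 of 20 genes fell (median -0.54) and in the ATF4 stress list 1 of 18 (median -0.41), in both cases the secreted stanniocalcin STC2 (-0.60 ± 0.16, adjusted p = 0.0407), whose call held only without control 2 or osimertinib 5 among the leave-outs (highest adjusted p = 0.121). Of 24 p53 targets 1 fell, the cell cycle inhibitor CDKN1A. It measured 23.0, 41.8, 28.2, 30.7 and 19.7 CPM in control and 13.1, 13.6, 16.0, 13.8 and 17.7 CPM in osimertinib, and its call (adjusted p = 0.0365) held only without control 1, control 5 or osimertinib 3 among the leave-outs (highest adjusted p = 0.101).

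Of the genes that rose, those of ion transport gave 2 of 18, with none lower and 2 or 3 called in each leave-out. Over all tested genes 2.70% were called higher, and 6.04% among those at low levels. FXYD2, the regulatory subunit of the sodium pump in kidney, measured 1.78, 1.37, 1.65, 2.26 and 3.50 CPM in control and 5.18, 10.1, 7.44, 12.4 and 8.98 CPM in osimertinib. All treated libraries exceeded all controls, a change of 4.15-fold, or 2.05 ± 0.25 on the log2 scale (adjusted p = 0.00046). KCNJ13, an inwardly rectifying potassium channel, was at 1.29, 1.95, 1.45, 1.41 and 1.87 CPM and 6.98, 6.13, 11.7, 12.0 and 7.88 CPM, again fully separated (2.48 ± 0.36, adjusted p = 0.00225). SPNS2, an exporter of sphingosine-1-phosphate, was at 9.67, 10.5, 3.58, 20.5 and 7.88 CPM and 24.8, 37.7, 34.7, 35.3 and 21.7 CPM. Control 4 came closest to the treated range, and the change was 1.57 ± 0.30 (adjusted p = 0.00726).

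ATG9B, a lipid scramblase of early autophagosomes, measured 13.7, 9.98, 9.12, 9.08 and 21.0 CPM in control and 34.4, 60.5, 22.1, 63.8 and 52.2 CPM in osimertinib. Osimertinib 3 lay just above control 5, and the change was 1.89 ± 0.37 (adjusted p = 0.00767). It was the only raised gene of 25 in autophagy and lysosome, where the regulator TFEB fell by 1.03 on the log2 scale (adjusted p = 0.0306, called only without control 1, control 5, osimertinib 4 or osimertinib 5 among the leave-outs, adjusted p up to 0.0765). The nesprin SYNE1, which links the nucleus to the cytoskeleton, was at 55.4, 53.5, 27.2, 51.4 and 70.0 CPM and 104, 142, 111, 129 and 120.5 CPM, without overlap (1.24 ± 0.19, adjusted p = 0.0029). The oxytocin receptor OXTR was at 3.43, 1.69, 3.24, 1.49 and 4.31 CPM and 6.76, 6.83, 14.4, 11.5 and 7.09 CPM, also without overlap (1.72 ± 0.29, adjusted p = 0.00392). UCA1, a long noncoding RNA first described in bladder cancer, was at 94.7, 76.6, 68.1, 73.3 and 155 CPM and 184, 239, 208, 261 and 183 CPM (1.20 ± 0.20, adjusted p = 0.00392). Control 5 was the highest control, and the symbol LOC124900418 carries identical counts, so the 2 cannot be told apart. SOX4, a transcription factor of progenitor cells, was at 216, 218, 199.97, 221 and 195 CPM and 313, 302, 252, 395 and 358 CPM. The groups were separated by a small step (0.63 ± 0.13, adjusted p = 0.014), and the call was lost without osimertinib 4 (adjusted p = 0.0531).

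**Figure D3:**
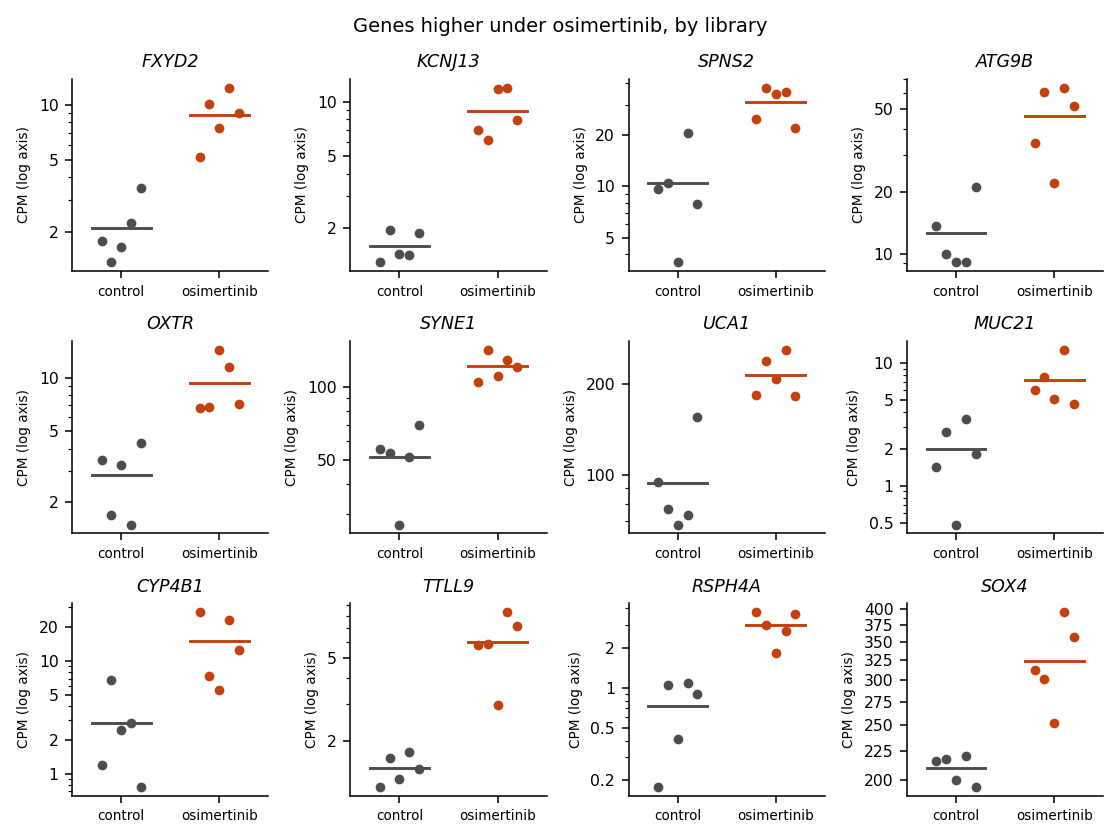
CPM (log axis) of 12 raised genes in the 5 control (grey) and 5 osimertinib libraries (orange), in order of replicate from left to right, with a bar at each group's mean. In 11 of the 12 no values overlap, and in CYP4B1 control 2 lies above osimertinib 3.

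Genes of the motile cilium, the beating organelle of airway ciliated cells, rose in 8 of 26 tested genes and fell in none, beside 2.70% called higher over all genes and 6.04% among genes at low levels. Positive values were found in 25 of the 26, where 47.3% of all tested genes were negative. The median was 0.97, beside 0.29 among genes at a mean log2 CPM under 2. All 5 treated libraries exceeded all controls in 11, beside 3.75% of all tested genes. TTLL9, an enzyme that adds glutamate chains to ciliary tubulin, measured 1.20, 1.66, 1.31, 1.78 and 1.47 CPM in control and 5.80, 5.81, 2.96, 8.31 and 7.14 CPM in osimertinib. Osimertinib 3 was the lowest treated library and still above every control (2.01 ± 0.30, adjusted p = 0.0023). RSPH4A, a radial spoke protein, was at 0.178, 1.05, 0.413, 1.09 and 0.901 CPM and 3.75, 3.01, 1.83, 2.70 and 3.63 CPM, fully separated (2.02 ± 0.34, adjusted p = 0.00392). DNAAF1, which assembles dynein arms, was at 1.56, 3.64, 1.86, 5.29 and 1.40 CPM and 11.7, 8.04, 4.56, 12.5 and 10.1 CPM. Control 4 exceeded osimertinib 3, and the change was 1.77 ± 0.35 (adjusted p = 0.00885). TEKT1, a filament of ciliary doublets, had 0, 1, 0, 1 and 4 raw counts in controls 1 to 5 and 31, 24, 5, 25 and 9 in osimertinib 1 to 5 (3.65 ± 0.69, adjusted p = 0.00656).

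The other 4 raised cilium genes were CFAP43, SPAG17, DNAH12 and TUBA4B, and with DNAAF1 they were named after their values were seen. CFAP43, an axoneme protein, lost its call without control 3 (adjusted p = 0.0546), and SPAG17, of the central pair, lost it without control 3, control 4 or osimertinib 4 (highest adjusted p = 0.0655). DNAH12, a dynein chain (2.39 ± 0.57, adjusted p = 0.0248), was not called when control 3, osimertinib 1 or osimertinib 4 was removed (adjusted p up to 0.0731), and TUBA4B (2.28 ± 0.60, adjusted p = 0.0358) was called among the leave-outs only without osimertinib 2 (adjusted p up to 0.102). FOXJ1, the master factor of motile ciliation, had 1.51 (adjusted p = 0.0664) and the dynein chain DNAH5 0.59 (adjusted p = 0.201), neither called. The list gave 4 calls without control 3, 5 without osimertinib 4, up to 12 in the other leave-outs and 5 with the mitochondrial covariate. TEKT1, DNAH12 and TUBA4B did not pass the filter for low counts when the 2 groups were fitted alone. A gene near 0 in control, as TEKT1 was, could hardly be called lower. The symbol families DNAH, CFAP, TEKT, RSPH, SPAG and TTLL include members outside the list. Of their 86 tested, 15 were higher (17.4%) and 0 lower, at a median log2 CPM of 1.91. Beside this stand 2.70% called higher over all genes and 6.04% among genes at low levels.

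Secretory and alveolar genes followed in smaller numbers. Of 15 mucins and secretory genes 4 rose and 1 fell, beside 2.70% called higher over all genes and 6.04% among genes at low levels. SCGB3A2, a secretoglobin of small airways, had 1, 0, 1, 0 and 0 raw counts in controls 1 to 5 and 29, 23, 5, 29 and 19 in osimertinib 1 to 5. No treated library was as low as any control (adjusted p = 0.00392). SCGB3A2 did not pass the filter for low counts with the 2 groups alone, and at such control counts it could hardly be called lower. The membrane mucin MUC21 measured 1.43, 2.74, 0.482, 3.47 and 1.80 CPM in control and 5.99, 7.64, 5.12, 12.8 and 4.64 CPM in osimertinib, without overlap (1.87 ± 0.39, adjusted p = 0.0111). MUC3A and MUC20 were the other 2, with calls that lasted in 4 and 3 of 10 leave-outs. MUC3A held without control 4, control 5, osimertinib 1 or osimertinib 3, and MUC20 without control 2, control 4 or osimertinib 3 (adjusted p up to 0.155 and 0.145). In all, 2 of the list were called higher when control 1, control 3 or any of osimertinib 2, 4 and 5 was left out. MUC2, the gel-forming mucin of the gut, changed by -2.01 ± 0.53 (adjusted p = 0.0357) and among the leave-outs was called only without control 1, control 5 or osimertinib 5 (highest adjusted p = 0.123).

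Of 14 alveolar genes 3 rose and none fell, beside 2.70% called higher over all genes and 6.04% among genes at low levels. The water channel AQP5 measured 0.0446, 0.18, 0.172, 0.525 and 0.1 CPM and 2.92, 1.24, 0.523, 3.59 and 1.62 CPM. Control 4 overlapped with osimertinib 3, and the change was 3.25 ± 0.58 (adjusted p = 0.00517). AQP4, a further water channel, had 0, 1, 0, 0 and 0 raw counts in control and 24, 14, 1, 12 and 25 in osimertinib (adjusted p = 0.0078). AQP4 did not pass the filter for low counts with the 2 groups alone, and at such control counts it could hardly be called lower. NKX2-1, the lineage factor of lung adenocarcinoma, was at 23.6, 26.5, 15.7, 28.7 and 22.4 CPM and 53.2, 43.5, 29.3, 64.7 and 56.0 CPM. Every treated library exceeded every control, yet the call (1.08 ± 0.30, adjusted p = 0.0427) held only without osimertinib 3 among the 10 leave-outs (highest adjusted p = 0.136).

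Enzymes that oxidise drugs and xenobiotics rose in 4 of 16 tested genes and fell in none, with a median of 0.59. Beside this, 2.70% of all tested genes were called higher. Among genes at a mean log2 CPM under 2 that share was 6.04% and the median 0.29. CYP4B1, a cytochrome P450 of the lung, was at 1.20, 6.85, 2.44, 2.82 and 0.768 CPM in control and 27.1, 7.40, 5.49, 23.0 and 12.7 CPM in osimertinib. Control 2 exceeded osimertinib 3, and the change was 2.42 ± 0.51 (adjusted p = 0.012). A further P450, CYP2S1, changed by 0.64 ± 0.15 (adjusted p = 0.0236), lost without control 3 or osimertinib 4 (highest adjusted p = 0.0767).

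CYP2C19, a P450 named after its value was seen, also rose (1.44 ± 0.37, adjusted p = 0.0316), and among the leave-outs was called only when control 1, control 2, osimertinib 1 or osimertinib 3 was the one removed (adjusted p up to 0.102). Reads of this gene may be split with close relatives. The list kept 2 calls without control 3 or osimertinib 4. The drug efflux pump ABCB1 was at 5.79, 3.64, 1.76, 3.31 and 6.47 CPM in control and 7.79, 12.3, 8.60, 8.27 and 8.45 CPM in osimertinib. Osimertinib 2 was the highest, and the call (1.12 ± 0.26, adjusted p = 0.0239) was lost without control 4 or osimertinib 2 (highest adjusted p = 0.0632).

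**Figure D4:**
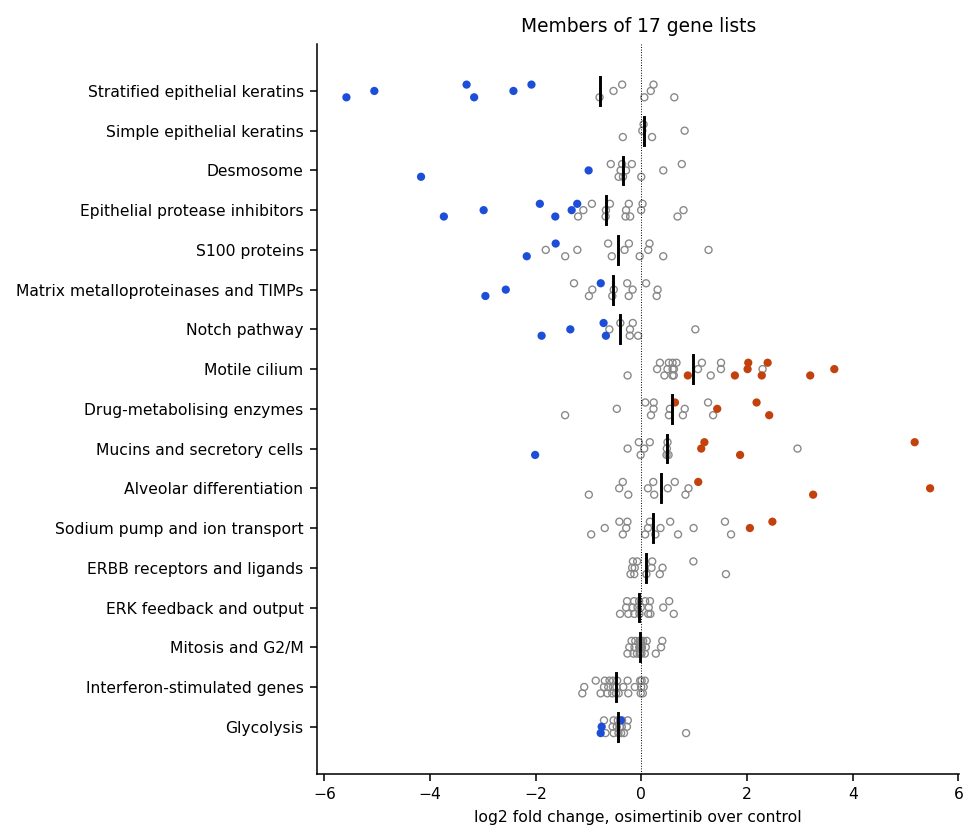
Log2 fold change of osimertinib over control (horizontal axis) for each tested member of 17 gene lists. Filled points passed the test (blue lower, orange higher), open points did not, and the black bar is the list's median, which is -0.79 for stratified keratins, 0.97 for the motile cilium and -0.04 for ERK output.

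The 13 protein-coding genes of the mitochondrial genome had a median log2 fold change of 0.53, and 12 of the 13 were positive. Only ATP8, an ATP synthase subunit, was called. It measured 418, 579, 777, 785 and 926 CPM in control and 1066, 1308, 1037, 1222 and 1739 CPM in osimertinib, without overlap (0.87 ± 0.23, adjusted p = 0.0359). Among the leave-outs the call was kept only when osimertinib 1, osimertinib 3 or control 5 was removed (adjusted p up to 0.0997). Nuclear genes of oxidative phosphorylation gave 1 call higher of 26, the cytochrome oxidase subunit COX6C (0.53 ± 0.13, adjusted p = 0.0245), and a median of -0.06. COX6C lost its call when any of controls 3 and 4 or osimertinib 4 and 5 was left out (adjusted p up to 0.0792).

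Across all 53 lists, 34 of 891 tested genes were higher (3.82%) and 46 lower (5.16%), and edgeR called no member of 18 lists. Of these 18, DESeq2 called members in 5 and voom in 9. The 9 without a call by any of the 3 tools included HLA class I, the unfolded protein response, the TCA cycle, and telomerase and shelterin. HLA class II and cholesterol synthesis each had 1 call by DESeq2 and 1 by voom, and heat shock chaperones and neuroendocrine genes each had 1 by voom. TERT, the telomerase catalytic subunit, had 1.28 ± 0.61 (adjusted p = 0.248) at under 1 CPM in each of the 10 libraries. Lists were chosen with earlier results of these data known, so their shares describe these lists alone.

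The addition of osimertinib to 6-thio-dG gave a second comparison, combination over thio, that shares no library with the first. There 3549 genes (21.2%) were higher and 3829 (22.9%) lower. Of the 695 genes called with osimertinib alone, 659 had the same sign in the combination against thio (94.8%, beside 73.1% of all tested genes). In 422 the second comparison was also called in the same direction, which is 60.7% of the first list and 5.72% of the second. Both comparisons share 1 estimate of spread. The mitochondrial share separates these groups fully, at 5.27% to 7.86% in thio and 11.0% to 30.2% in combination. In the first comparison it overlapped, with osimertinib 3 (8.62%) below control 5 (9.29%). With that share as a covariate, an alternative chosen after seeing the data, 105 genes were higher and 86 lower there, 76 of the 695 were called in the same direction and 553 had the same sign. Without combination 3, combination 5 and thio 3, 1546 genes were higher and 1765 lower, with 315 of the 695 among them in the same direction. KRT6A was at -4.0 ± 0.68 there (adjusted p = 0.000197), NOTCH3 at -1.19 ± 0.28 (adjusted p = 0.00211), KCNJ13 at 2.57 ± 0.39 (adjusted p = 8.44e-05) and SYNE1 at 1.25 ± 0.21 (adjusted p = 0.000171), beside -5.05, -1.35, 2.48 and 1.24 without 6-thio-dG. With the covariate, the adjusted p in that comparison was 0.0391 for KRT6A, 0.0355 for KCNJ13, 0.0847 for NOTCH3 and 0.123 for SYNE1. Of the 26 cilium genes 19 were called higher and 0 lower, and of the 13 mitochondrial genes all 13 higher.

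Some responses were not called in the second background. COL5A1 stood at -0.31 ± 0.26 (adjusted p = 0.339), JAG2 at -0.26 ± 0.17 (adjusted p = 0.204), IGF2 at 0.53 ± 0.65 (adjusted p = 0.525) and MUC21 at 0.60 ± 0.39 (adjusted p = 0.22). Their differences between backgrounds did not pass the test of the difference itself, at adjusted p = 0.0926, 0.207, 0.142 and 0.144. One called gene, SDR16C5, was called in the opposite direction. Its first call (1.03 ± 0.26, adjusted p = 0.032) held only without control 1, control 2 or osimertinib 5 among the leave-outs (adjusted p up to 0.0897).

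That test of the difference called 576 genes (3.45%), 21 of them among the 695. S100A9 fell further in the combination over thio, by -4.86 ± 0.45 against -2.17 ± 0.39 (difference -2.69 ± 0.56, adjusted p = 0.0287). TTLL9 rose further, by 3.60 ± 0.34 against 2.01 ± 0.30 (difference 1.59 ± 0.44, adjusted p = 0.0488). ERRFI1 had -1.12 ± 0.24 (adjusted p = 0.00117) against 0.09 ± 0.23 (difference -1.21 ± 0.33, adjusted p = 0.0476). EGFR had -0.79 ± 0.18 (adjusted p = 0.00216) against -0.08 ± 0.17, where the difference was not called (adjusted p = 0.0947). In thio 1 to 4 ERRFI1 stood at 434, 320, 718 and 371 CPM, above the 145 to 247 CPM of control. Its combination values of 140 to 309 CPM overlapped with control. EGFR stood at 5365, 5157, 8136 and 6035 CPM in thio, 3045 to 4593 in combination and 3175 to 5217 in control. The ERK feedback list had 1 gene higher and 10 lower of 19 in the second background, where 21.2% of all tested genes were higher and 22.9% lower. With the mitochondrial covariate the calls over all genes there were 105 higher and 86 lower. The test called no difference without control 3, without osimertinib 2, or without combination 3, combination 5 and thio 3 together, where 3893, 3708 and 2293 genes had an unadjusted p under 0.05. It also called none with the mitochondrial or the muscle covariate (2168 and 3708 at that unadjusted p), and DESeq2 called 1726. In the combination over thio, ERRFI1 and EGFR had an adjusted p of 0.447 and 0.442 with the mitochondrial covariate.

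**Figure D5:**
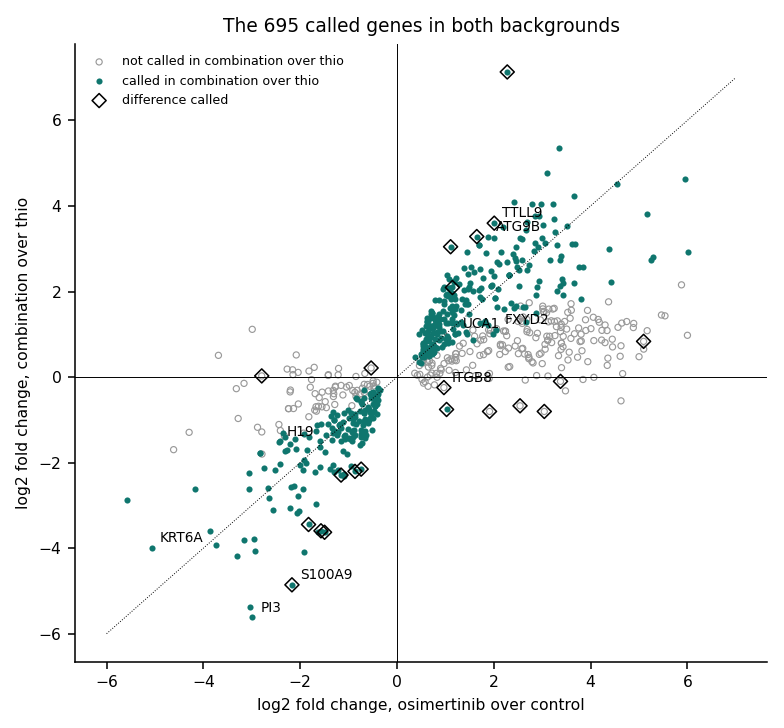
Log2 fold changes of the 695 genes called with osimertinib alone, with osimertinib over control on the horizontal axis and combination over thio on the vertical axis; the dotted line marks equal change. Filled points (422 in the same direction and SDR16C5 in the opposite one) were also called in the combination over thio, and the 21 diamonds passed the test of the difference.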

How the data were processed

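RNA was purified on poly-T beads and made into libraries with a kit that marks no strand, per the labels' protocols. The authors deposited whole-number read counts for each human gene symbol (31276 genes, 19 libraries), without normalization. FastQC, Trimmomatic, STAR and the build hg38 are named in the submitters' processing notes, while tool versions, the counting program, the gene annotation and the handling of mouse reads are not stated in the sources used here. The labels name the mouse as organism, and human symbols were read as human genes. Reads shared between the species could not be assessed. In 156 sets 322 symbols had identical counts.

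In R 4.3.3, edgeR 4.0.16 kept 16704 genes by filterByExpr (count minimum 10, total minimum 15). These genes took at least 99.8% of every library's counts. After TMM scaling, group means over all 19 libraries were fitted in 1 quasi-likelihood model, so that all groups share the estimate of spread. Benjamini-Hochberg adjustment ran over all tested genes, and an adjusted p under 0.05 is a call. The script was tested on simulated data. A total of 3 counts equals 0.0848 to 0.134 CPM in the 10 libraries, which limits genes of few counts. CPM is not scaled by gene length. Replicate numbers follow the order of deposition. Mitochondrial share and marker sums, as log2(CPM + 1), were compared by 2-sided exact permutation tests.

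The members and the 53 gene lists, of 981 genes of which 891 were tested, were chosen with earlier results of these data known. Genes were named by this rule: the 15 separated calls with the largest change in each direction at a mean log2 CPM of at least 2, the 5 calls in each direction with the largest difference in CPM, up to 3 calls per list, 17 genes of the EGFR, cell cycle and telomerase pathways in any case, and the 5 genes with the smallest adjusted p between backgrounds. The text prints some of them, and some results are not reported here. KRT7, KRT8, KRT18, KRT19, DSP, SPRR2D, OASL, CXCL8, FOXJ1, DNAH5, MUC3A, MUC20 and SDR16C5 were also named after their values were seen. Alternatives were DESeq2 1.42.0, voom in limma 3.58.1, other scalings and filters, the 2 groups alone, a 2-fold minimum, covariates and left-out libraries.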

Additional observations from a re-analysis of the deposited data

Results flagged for a closer look

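Single libraries stood apart from the others of their group in 9 of 200 groups of values checked by Dixon's test, where chance alone gives about 1 in 20, or 10. In osimertinib 5, NRARP was at 9.85 CPM and ADA at 18.5 CPM, both above the other 4 treated libraries. Osimertinib 1 was low in ID1 (11.1 CPM) and high in the summed erythroid markers (1.83 CPM). Osimertinib 2 was high in ABCB1 (12.3 CPM), and osimertinib 3 was low in PLA2G4A (3.75 CPM) and SCGB3A2 (0.145 CPM). Control 2 held the single control read of AQP4 (0.0360 CPM), and control 5 was high in the summed lung cancer epithelial markers (27602 CPM).

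The log2 change under osimertinib differed between the backgrounds with and without 6-thio-dG, by the test of the difference itself, in 13 of the genes named by the rule or in the text. Of these, 5 were named because of their small adjusted p in this same test, so the count of 13 carries no weight. Over all 16704 tested genes the test called 576 (3.45%). The difference, combination over thio minus osimertinib over control, was -2.69 in S100A9, -1.62 in TCN1, -2.02 in STC1, -1.21 in ERRFI1, -1.22 in ITGB8 and -2.13 in PID1. It was 0.95 in LRRC37A3 and 1.59 in TTLL9. The genes with the smallest adjusted p were the cytokine receptor TNFRSF1B (-5.41), the NAD synthesis enzyme NAMPT (-2.91), the collagen hydroxylase P3H2 (-1.38), the phosphatase subunit PPP2R3A (-1.71) and the microRNA host gene MIRLET7A1HG (1.49), each at adjusted p = 0.0265. None of these 5 was called with osimertinib alone. NAMPT, for example, stood at 355, 289, 241, 272 and 266 CPM in controls 1 to 5 and 343, 349, 260.4, 211 and 215 CPM in osimertinib 1 to 5 (adjusted p = 0.957). In thio 1 to 4 NAMPT stood at 1450, 516, 3626 and 870 CPM, and in combination at 166 to 277 CPM. TNFRSF1B stood at 19.5, 4.94, 78.4 and 7.45 CPM in thio, 1.07 to 2.44 in combination and at most 1.25 in control. The test called no difference without control 3, without osimertinib 2, or with the mitochondrial or the muscle covariate (3893, 3708, 2168 and 3708 genes at an unadjusted p under 0.05).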

How the results depend on the processing

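Counts of changed genes depended on the method and on single libraries. Against 451 higher and 244 lower, the 2 groups alone gave 242 and 209, DESeq2 753 and 448, voom with quality weights 955 and 573, the mitochondrial covariate 178 and 144, a stricter filter 274 and 198, a skeletal muscle covariate 301 and 132, a 2-fold minimum 337 and 147, leaving out control 5 and osimertinib 5 together 191 and 211, and leaving out combination 3, combination 5 and thio 3 together 663 and 491. Control 5 and osimertinib 5 carry title numbers above those of the other libraries of their groups. Leaving out 1 library gave 126 to 535 higher and 83 to 262 lower. The 3549 higher and 3829 lower genes of the combination over thio became 105 and 86 with the mitochondrial covariate and 1546 and 1765 without combination 3, combination 5 and thio 3, both chosen after seeing the data. The 576 differences between backgrounds became 1726 with DESeq2, 2802 with voom and 0 with either covariate (voom and the covariates were added after seeing the data), 0 without combination 3, combination 5 and thio 3, and 0 to 1100 with 1 library left out. It was 0 without control 3 (3893 at an unadjusted p under 0.05) and without osimertinib 2 (3708), and 2293 were at that p without the 3 libraries, and 2168 with the mitochondrial and 3708 with the muscle covariate.

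Of 110 called genes named by the rule or in the text, 52 kept their call in all 10 leave-outs, 69 with the mitochondrial covariate, 83 with the 2 groups alone, 80 with the muscle covariate, 106 with voom and 110 with DESeq2. Signs turned only near 0. EGFR went to 0.0455 with the mitochondrial covariate and spanned -0.19 to 0.0103 in the leave-outs. NAMPT went to 0.14 with that covariate, 0.0988 with voom and 0.00889 without control 5 and osimertinib 5, and spanned -0.15 to 0.0457. The leave-outs spanned -0.00792 to 0.17 in ERRFI1, -0.29 to 0.0739 in DUSP6, -0.16 to 0.00072 in BCL2L11 and -0.0587 to 0.15 in PPP2R3A. For log2 marker sums they spanned -0.17 to 0.16 (lymphocyte), -0.12 to 0.22 (macrophage), -0.28 to 0.0334 (fibroblast) and -0.0473 to 0.0607 (lung cancer epithelial). Another scaling moved the median of all genes by at most 0.0379 and turned the sign of 6 list medians, all near 0. The causes were not tested. No paired analysis was possible because replicate numbers are only names given in deposition order, and no label pairs libraries. Genes with few counts were resolved least at this depth.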
